A study of Mus musculus with 6 samples.

Results

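The genes described here mark B cells and plasma cells in whole mouse lung. They are a list of 9 genes, Cd79a, Cd79b, Cd22, Cr2, Ms4a1, Tnfrsf13c, Cxcr5, Pax5 and Jchain, and all 9 were found by symbol among the 24061 rows of the deposited count table. The rule that fixes the list uses no expression value, but the genes were proposed with earlier results of these data known. The tested lungs came from CCSP/TGFalpha mice given doxycycline for 3 weeks, which the labels call the disease group. The controls were lungs of CCSP/- mice on the same 3 weeks of doxycycline, so the drug and the CCSP part of the genotype are common to both groups. In models of this design the CCSP promoter, which is active in airway and other lung epithelial cells, drives the doxycycline-dependent activator of the TGFalpha transgene. The study concerns gene expression during pulmonary fibrosis induced by TGFalpha, and RNA was sequenced from 3 lung libraries per group. The labels give neither age nor sex nor whether each library of a group is a different animal. All p-values below therefore reflect the spread between these libraries only.

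B cells sense antigen through a membrane antibody that signals through the paired chains Cd79a and Cd79b. Coreceptors set the strength of that signal, Cr2 raising it when antigen carries complement and Cd22 damping it. Survival depends on the cytokine BAFF (gene Tnfsf13b) and its receptor Tnfrsf13c, entry into follicles on the chemokine Cxcl13 and its receptor Cxcr5, and B cell identity on the transcription factor Pax5, which is switched off when a B cell becomes an antibody-secreting plasma cell. Plasma cells then make Jchain, the joining chain of polymeric IgA and IgM. In lung, resting B cells are few, and follicle-like clusters of B cells can form around airways in chronic disease.

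The libraries held 21479006 to 24914322 counts each. TGFalpha replicate 1 and control replicate 1 stood apart from the rest: 9 skeletal muscle genes summed to 2607 CPM (read counts scaled to the size of the library) in TGFalpha replicate 1 and 1460 CPM in control replicate 1, against 53.6 to 69.8 CPM in the other 4 libraries. The fold changes of the 9 genes and the calls among related genes are given with and without these libraries. The tissue label was borne out by 8 lung markers, surfactant, club cell and endothelial genes among them, whose summed level was 13570 to 15860 CPM in TGFalpha lungs and 14310 to 18960 CPM in control lungs. Of these 8 markers, 2 fell in edgeR's quasi-likelihood test, Pecam1 of endothelium and Scgb1a1 of club cells. The call of Pecam1 was lost without TGFalpha replicate 1 or 2, control replicate 2 or 3 or both muscle-containing libraries (adjusted p up to 0.143), and that of Scgb1a1 without any TGFalpha replicate, control replicate 1 or 3 or both muscle-containing libraries and with the replicate block (adjusted p up to 0.185).

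All 9 genes were detected in every library and passed the low-count filter, and none of them changed past the threshold. The threshold was an adjusted p of 0.05 in the edgeR test over 16089 genes, in which 8.33% of all genes were called, 5.03% as higher in TGFalpha lungs and 3.29% as lower. The number of the 9 genes called was 0 in each direction, also with DESeq2 and with limma-voom. At an unadjusted p under 0.05 only Pax5 passed, by each of the 3 tools, against 27.0% of all genes in edgeR. The log2 fold changes, TGFalpha over control, ran from -1.42 for Pax5 to 0.09 for Cd79b. Their median was -0.39 beside 0.01 for all genes, and 7 of the 9 lay below 0, beside 49.1% of all genes. The median was -0.38 for 5 pan-leukocyte genes, -0.37 for 15 T cell markers and -0.90 for 7 NK cell markers. It was 0.03 for 8 macrophage and monocyte markers and 0.20 for 5 markers of plasmacytoid dendritic cells. The CPM values of the groups did not overlap for 2 of the 9 genes, Pax5 and Tnfrsf13c, against 33.2% of all genes tested. In bulk tissue, fewer cells of a type and less RNA per cell cannot be told apart.

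**Figure D1:**
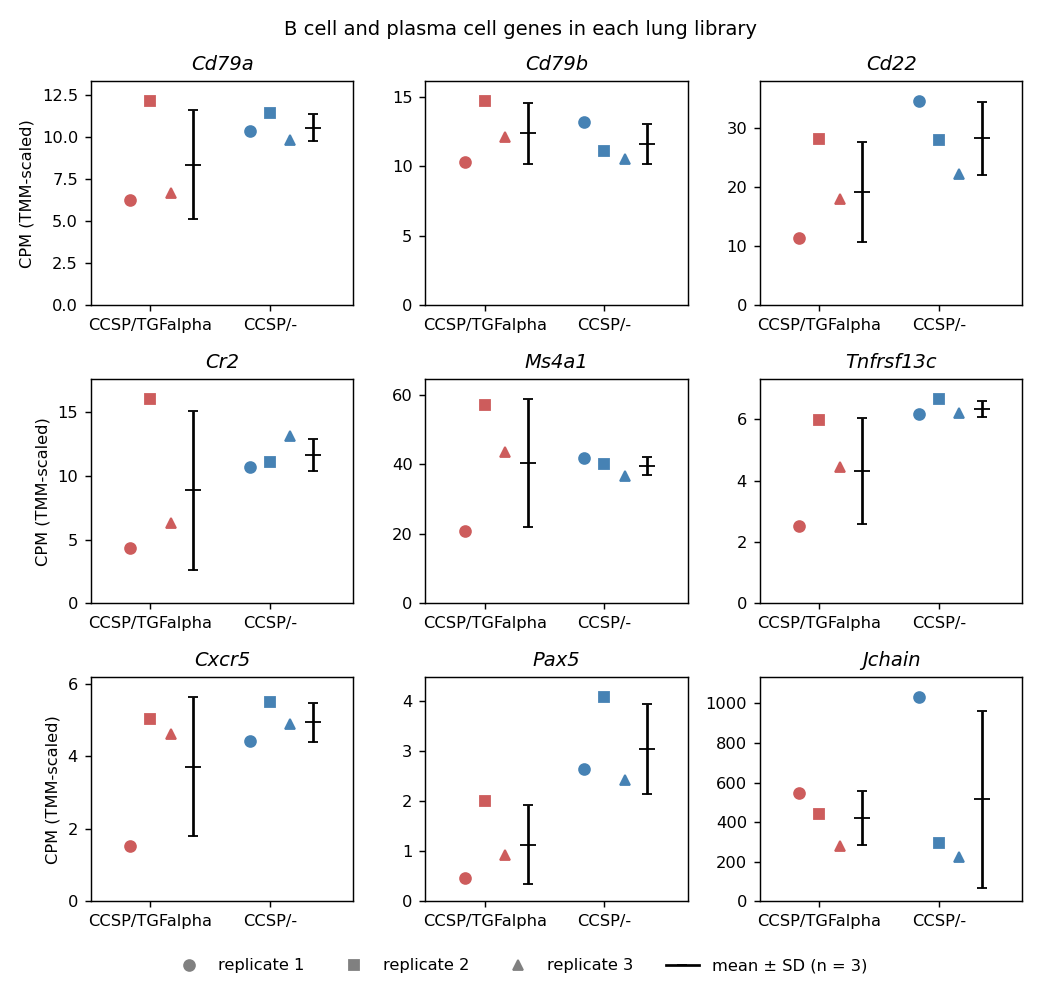
Level of each of the 9 genes in CPM scaled by TMM (vertical axes, from 0) in the 3 CCSP/TGFalpha and 3 CCSP/- lung libraries, with a symbol per replicate and the mean ± SD of each group. The circles of TGFalpha replicate 1 are the lowest points for every gene except Jchain, and the groups separate fully for Tnfrsf13c and Pax5.

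Sequences upstream of these genes are shown first, and their part in the levels of the genes was not tested. Of the 9 genes, 6 were found in the RefSeq table of promoters on build GRCm38.p6, namely Cd79a, Cd22, Cr2, Tnfrsf13c, Pax5 and Jchain. The 250 bases before each start were searched on both strands for 5 short motifs of factors that act in B cells. The E-box CAGGTG, a form bound by E2A (Tcf3), was in the windows of 4 of these 6 genes and in 17.2% of the 32851 windows of the table. The exact palindrome TCCCNNGGGA, a core bound by EBF1, was in 1 of the 6, Cd22, and in 0.779% of all windows. Only the exact letters of each motif were searched. A window without a match may still hold a site that departs from them. The other 3 motifs were the octamer ATGCAAAT, in 1.6% of all windows, the PU.1 motif GAGGAAGT, in 2.44%, and the NF-kB motif GGGANNNTCC, in 3.86%, and none of these letters were in the 6 windows. A match describes the letters only. The windows of the 4 genes with a match follow, 5′ to 3′ on the strand of the gene, with the matches in capitals. They are chr7:24897247-24897496 (plus strand) for Cd79a, chr7:30879029-30879278 (minus) for Cd22, chr1:195176720-195176969 (minus) for Cr2 and chr15:82224381-82224630 (minus) for Tnfrsf13c.
Cd79a: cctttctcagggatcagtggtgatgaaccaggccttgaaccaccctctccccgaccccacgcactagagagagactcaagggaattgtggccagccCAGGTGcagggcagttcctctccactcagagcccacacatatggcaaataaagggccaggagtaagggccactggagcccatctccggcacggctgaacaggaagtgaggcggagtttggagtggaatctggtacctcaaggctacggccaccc
Cd22: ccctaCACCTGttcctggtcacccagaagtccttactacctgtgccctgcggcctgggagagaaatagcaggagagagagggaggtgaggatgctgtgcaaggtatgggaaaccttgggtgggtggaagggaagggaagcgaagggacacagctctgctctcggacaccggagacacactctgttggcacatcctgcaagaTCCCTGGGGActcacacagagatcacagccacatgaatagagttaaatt
Cr2: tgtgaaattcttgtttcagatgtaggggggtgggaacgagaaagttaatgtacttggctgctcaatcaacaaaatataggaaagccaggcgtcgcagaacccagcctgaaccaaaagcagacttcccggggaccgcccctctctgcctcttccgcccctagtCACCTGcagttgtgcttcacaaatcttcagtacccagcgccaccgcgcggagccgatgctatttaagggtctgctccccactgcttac
Tnfrsf13c: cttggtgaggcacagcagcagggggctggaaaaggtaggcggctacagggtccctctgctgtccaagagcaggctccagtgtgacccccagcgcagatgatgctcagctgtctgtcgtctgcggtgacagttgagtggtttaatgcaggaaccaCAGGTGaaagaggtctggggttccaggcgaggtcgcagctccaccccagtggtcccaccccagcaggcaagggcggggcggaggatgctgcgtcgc
The E-box reads CAGGTG on the strand shown in Cd79a, beginning 154 bases before the start, and in Tnfrsf13c, 96 bases before it. It lies on the other strand, read here as CACCTG, in Cd22 at 245 bases and in Cr2 at 88 bases before the start. The EBF1 palindrome of Cd22 begins 49 bases before the start. The starts that the table uses for Cd22 and Cr2 lie inside the annotated span of each gene, not at its outer end.

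The signalling chains of the B cell receptor differed between groups by less than the spread of the libraries. Cd79a (gene ID 12518, chromosome 7, 24897497 to 24901858, on GRCm38.p6 as all positions here) had 6.29, 12.1 and 6.70 CPM in TGFalpha replicates 1 to 3, against 10.4, 11.5 and 9.86 CPM in control replicates 1 to 3. TGFalpha replicates 1 and 3 lay below every control and TGFalpha replicate 2 above every control. The means were 8.38 ± 3.26 CPM in TGFalpha lungs and 10.6 ± 0.813 CPM in control lungs (SD, n = 3 each), and the log2 fold change was -0.34 ± 0.29 (SE), with a 95% interval of -0.99 to 0.32 and an adjusted p of 0.479 in edgeR.

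Its partner Cd79b (15985, chromosome 11, 106311341 to 106314562) had 10.3, 14.7 and 12.2 CPM in TGFalpha lungs and 13.2, 11.1 and 10.6 CPM in control lungs. Every control value lay within the range of the TGFalpha values. Cd79b had the narrowest interval of the 9 genes, a log2 fold change of 0.09 ± 0.21 with a 95% interval of -0.38 to 0.56 (edgeR adjusted p = 0.805). The ratio of Cd79a to Cd79b in CPM was 0.612, 0.826 and 0.552 in TGFalpha lungs and 0.787, 1.03 and 0.935 in control lungs, overlapping through TGFalpha replicate 2.

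Of the coreceptors, Cd22 (12483, chromosome 7, 30865404 to 30880342), a sialic acid-binding inhibitor of receptor signalling, had 11.4, 28.1 and 18.0 CPM in TGFalpha lungs. In control lungs it had 34.5, 28.0 and 22.2 CPM. TGFalpha replicates 1 and 3 were below all controls, and TGFalpha replicate 2 lay within their range. The log2 fold change was -0.56 ± 0.32 (95% interval -1.29 to 0.17, edgeR adjusted p = 0.294). Set against Cd79b in the same library, Cd22 separated the groups: the ratio was 1.11, 1.92 and 1.48 in TGFalpha lungs and 2.61, 2.53 and 2.11 in control lungs. This ratio was computed after the values had been seen and was not tested.

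Cr2 (12902, chromosome 1, 195136811 to 195176880), the receptor for complement fragments on B cells and follicular dendritic cells, had 4.34, 16.0 and 6.28 CPM in TGFalpha lungs. Control lungs had 10.7, 11.1 and 13.1 CPM. TGFalpha replicate 2 was the highest of the 6 libraries and the other TGFalpha libraries were the lowest. The log2 fold change was -0.39 ± 0.44, and its 95% interval of -1.39 to 0.61 covers changes of either sign (edgeR adjusted p = 0.60). Fcer2a, the low-affinity IgE receptor of mature B cells, was chosen for comparison after its values were seen. It had 3.66, 15.6 and 9.80 CPM in TGFalpha lungs and 39.6, 23.1 and 14.3 CPM in control lungs, with an edgeR log2 fold change of -1.40 ± 0.52 and an adjusted p of 0.129. It passed with DESeq2 (adjusted p = 0.0169), and without both muscle-containing libraries its edgeR log2 fold change was -0.56 (adjusted p = 0.395).

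Ms4a1 (12482, chromosome 19, 11249679 to 11266149), which encodes CD20, the surface protein targeted by B cell-depleting antibodies, had 20.7, 56.9 and 43.5 CPM in TGFalpha lungs. Control lungs had 41.8, 40.2 and 36.6 CPM. The TGFalpha libraries lay on both sides of the narrow control range, 1 below it and 2 above it. The mean was 40.4 ± 18.3 CPM in TGFalpha lungs and 39.5 ± 2.68 CPM in control lungs, and the log2 fold change was 0.03 ± 0.32 (95% interval -0.69 to 0.75, edgeR adjusted p = 0.962). A long noncoding gene, 4930526L06Rik, overlaps Ms4a1 and had 16 counts over all libraries.

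The BAFF receptor Tnfrsf13c (72049, chromosome 15, 82221742 to 82224380) had 2.51, 5.96 and 4.44 CPM in TGFalpha lungs and 6.18, 6.65 and 6.21 CPM in control lungs. All TGFalpha libraries were below all controls, although TGFalpha replicate 2 missed the lowest control only narrowly. The mean was 4.30 ± 1.73 CPM in TGFalpha lungs and 6.35 ± 0.261 CPM in control lungs. The log2 fold change of -0.56 ± 0.34 did not pass the test (95% interval -1.33 to 0.21, edgeR adjusted p = 0.322).

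Cxcr5 (12145, chromosome 9, 44511787 to 44526444), the follicle homing receptor, had 1.53, 5.02 and 4.61 CPM in TGFalpha lungs. Control lungs had 4.42, 5.50 and 4.89 CPM. Only TGFalpha replicate 1 was outside the control range. The log2 fold change was -0.41 ± 0.43 (95% interval -1.39 to 0.58, edgeR adjusted p = 0.578). The gene overlaps Bcl9l, which had 3265 counts over the 6 libraries, and without a stated strand setting reads of the overlapping stretch cannot be assigned.

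Pax5 (18507, chromosome 4, 44524748 to 44710694) showed the widest separation among the 9 genes. It had 0.468, 2.02 and 0.922 CPM in TGFalpha lungs and 2.65, 4.08 and 2.42 CPM in control lungs. These rest on 11, 49 and 22 counts in TGFalpha lungs and 66, 89 and 53 counts in control lungs. Every TGFalpha library was below every control. The mean was 1.14 ± 0.795 CPM in TGFalpha lungs and 3.05 ± 0.899 CPM in control lungs, a fold of 0.374. The log2 fold change was -1.42 ± 0.55 (95% interval -2.69 to -0.16), with an unadjusted p of 0.0321 and an adjusted p of 0.144 in edgeR. Over the 16 alternative settings its log2 fold change stayed between -2.12 and -1.05 and its adjusted p between 0.0784 and 0.355. Without both muscle-containing libraries the log2 fold change was -1.15 (edgeR adjusted p = 0.307). The ratio of Pax5 to Cd79b was 0.0455, 0.137 and 0.0759 in TGFalpha lungs and 0.201, 0.368 and 0.229 in control lungs, a separation that was computed after the values had been seen and was not tested. The noncoding gene 5730488B01Rik, which overlaps Pax5, had 48 counts over all libraries, and the overlapping Mir5120 had 0.

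Jchain (16069, chromosome 5, 88519809 to 88527897) was the most abundant of the 9 genes and went its own way. It had 549, 439.7 and 278 CPM in TGFalpha lungs and 1031, 295 and 225 CPM in control lungs. Within each group the highest library was replicate 1, the library that also held skeletal muscle transcripts, and the part of that tissue in the result was not tested. The mean was 422 ± 137 CPM in TGFalpha lungs and 517 ± 447 CPM in control lungs, and the log2 fold change was -0.29 ± 0.54 (95% interval -1.53 to 0.95, edgeR adjusted p = 0.762). Without control replicate 1 the log2 fold change turned to 0.69 (edgeR adjusted p = 0.196), and without both muscle-containing libraries it was 0.46 (adjusted p = 0.394). Mzb1, an endoplasmic reticulum cofactor of antibody secretion that was chosen after its values were seen, was likewise highest in replicate 1 of each group, with 5.57, 5.30 and 3.23 CPM in TGFalpha lungs and 8.43, 2.48 and 3.84 CPM in control lungs. Its log2 fold change was -0.07 ± 0.46 (edgeR adjusted p = 0.941) and turned to 0.43 without both muscle-containing libraries.

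**Figure D2:**
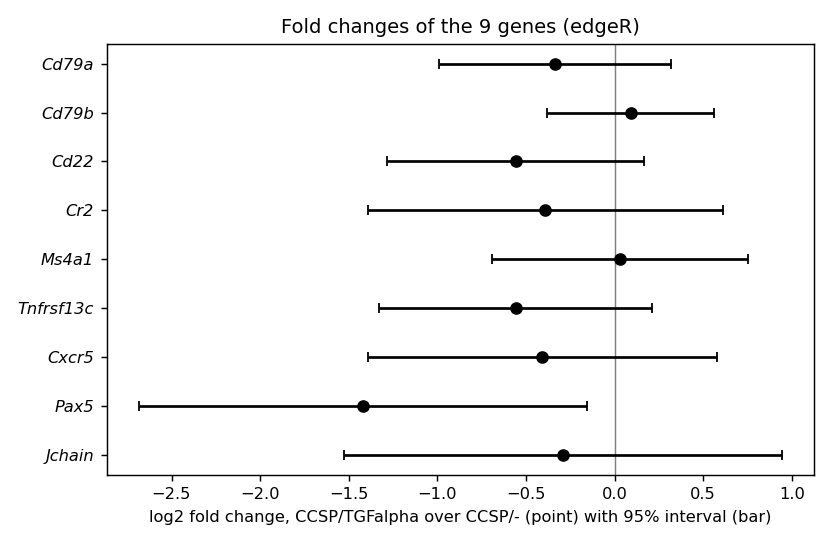
Log2 fold change of each gene, CCSP/TGFalpha over CCSP/- (horizontal axis; points), with its 95% interval from edgeR (bars). Only the interval of Pax5, from -2.69 to -0.16, leaves out 0 before adjustment, and the interval of Jchain is nearly as wide, from -1.53 to 0.95.

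The B cell genes shared a spread among the TGFalpha libraries. Except for Jchain, each gene was lowest of the 6 libraries in TGFalpha replicate 1, 8 of 9 genes against 25.4% of all genes tested. The same 8 genes were ordered replicate 1, replicate 3, replicate 2 from low to high within the TGFalpha group, against 18.0% of all genes. That order was not particular to them. It was also in 10 of 15 T cell markers and 12 of 19 signalling partners of the B cell receptor. It was in 2 of 8 macrophage and monocyte markers and 0 of 7 NK cell markers. Replicates carry no order of their own, so the order describes genes that vary together. The order, the lowest library and the setting aside of Jchain were chosen after the values had been seen and were not tested. The 8 genes averaged -0.97, 0.39 and -0.24 in TGFalpha replicates 1 to 3 on the log2 CPM scale centred on the 6-library mean of each gene. In control replicates 1 to 3 the same average was 0.29, 0.36 and 0.17. Jchain had 0.43, 0.11 and -0.55 in TGFalpha lungs and 1.34, -0.47 and -0.86 in control lungs on this scale.

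The ratio of the highest to the lowest library was larger among TGFalpha lungs than among control lungs for 8 of the 9 genes, against 57.3% of all genes. For Ms4a1 that ratio was 2.75 among TGFalpha lungs and 1.14 among control lungs. For Cr2 it was 3.69 among TGFalpha lungs and 1.22 among control lungs, and for Pax5 4.31 among TGFalpha lungs and 1.69 among control lungs. Cd79b varied least among TGFalpha lungs, at 1.43 beside 1.25 among control lungs. The exception was Jchain, with 1.98 among TGFalpha lungs and 4.59 among control lungs.

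**Figure D3:**
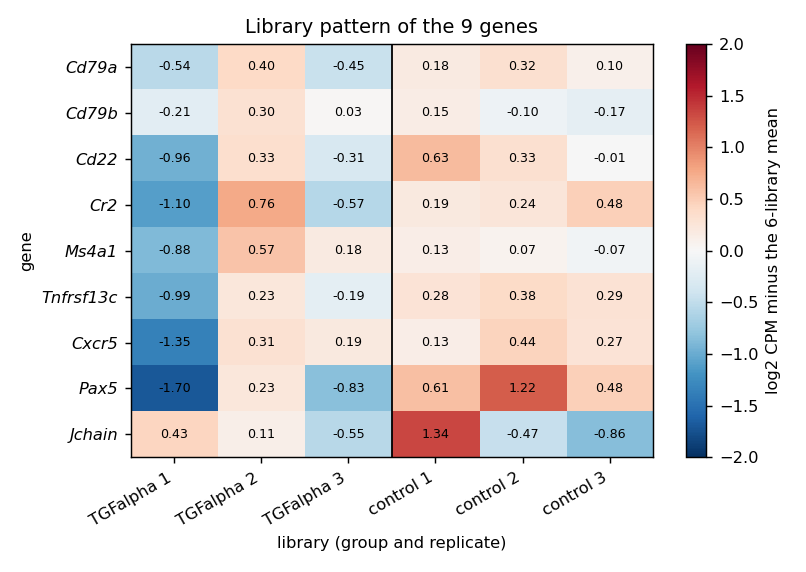
Log2 CPM of the 9 genes (rows) in the 3 TGFalpha and 3 control libraries (columns), each centred on the 6-library mean of the gene, with red above and blue below that mean. The column of TGFalpha replicate 1 is below the mean for all genes but Jchain, down to -1.70 for Pax5, and that of TGFalpha replicate 2 is above it for all 9.

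Single libraries decided how the list looked. Without TGFalpha replicate 2, all 9 log2 fold changes were below 0 and 5 genes had an unadjusted p under 0.05 in edgeR (Cd79a, Cd22, Cr2, Tnfrsf13c and Pax5), with 0 called after adjustment. Without TGFalpha replicate 1, TGFalpha replicate 3 or control replicate 2, and without both muscle-containing libraries, 0 genes had an unadjusted p under 0.05. Without control replicate 1 those with such a p were Pax5 and Jchain, and without control replicate 3 Pax5. In these settings the share of all genes with an unadjusted p under 0.05 was 25.7% without TGFalpha replicate 2, 19.8% without TGFalpha replicate 1, 25.9% without TGFalpha replicate 3, 21.2% without control replicate 2, 24.6% without control replicate 1, 18.6% without control replicate 3 and 19.9% without both muscle-containing libraries. All genes split near evenly in sign without TGFalpha replicate 2, with 49.9% below 0.

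Without both muscle-containing libraries the median of the 9 log2 fold changes was -0.13. Under that setting Cd22 was at -0.13, Cr2 at -0.13 and Cxcr5 at -0.11, closer to 0 than with all libraries. Cd79a was at -0.19, Tnfrsf13c at -0.31, Cd79b at 0.31 and Ms4a1 at 0.38. TGFalpha replicates 1 and 2 pulled in opposite directions. Without TGFalpha replicate 1, log2 fold changes were -0.17 for Cd79a, -0.29 for Cd22, -0.06 for Cr2, -0.29 for Tnfrsf13c, -0.03 for Cxcr5 and 0.35 for Ms4a1. Without TGFalpha replicate 2 they were -0.70 for Cd79a, -0.94 for Cd22, -1.13 for Cr2, -0.865 for Tnfrsf13c, -0.68 for Cxcr5 and -0.30 for Ms4a1, and the lowest edgeR adjusted p among these 6 was 0.067, for Cr2.

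Compared per kilobase of merged exon, Jchain had the highest level and Pax5 the lowest in both groups. Jchain had 168 ± 54.2 CPM per kb in TGFalpha lungs and 205 ± 177 in control lungs. Cd79b followed with 8.64 ± 1.54 CPM per kb in TGFalpha lungs and 8.12 ± 0.982 in control lungs. Ms4a1 had 6.52 ± 2.96 CPM per kb in TGFalpha lungs and 6.39 ± 0.432 in control lungs, and Cd79a 5.75 ± 2.24 in TGFalpha lungs and 7.26 ± 0.558 in control lungs. In both groups the ranges of mean ± 1 SD of Cd79b, Ms4a1, Cd79a and Cd22 ran into each other from each gene to the next in the order.

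Further down the per-kilobase order, Cd22 had 3.80 ± 1.67 CPM per kb in TGFalpha lungs and 5.61 ± 1.22 in control lungs. Tnfrsf13c had 2.10 ± 0.845 CPM per kb in TGFalpha lungs and 3.10 ± 0.127 in control lungs. Cxcr5 had 1.12 ± 0.572 in TGFalpha lungs and 1.48 ± 0.163 in control lungs, and Cr2 1.09 ± 0.77 in TGFalpha lungs and 1.44 ± 0.158 in control lungs. Pax5 had 0.128 ± 0.0899 CPM per kb in TGFalpha lungs and 0.345 ± 0.102 in control lungs. By the same measure, among control lungs Cd22 stood clear above Tnfrsf13c and Tnfrsf13c above Cxcr5, while Cxcr5 and Cr2 overlapped. Among TGFalpha lungs, only Jchain at the top and Pax5 at the bottom stood clear of their neighbours.

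The genes most like the average profile of Cd79a, Cd79b and Ms4a1 were Pik3cd, Uhrf1bp1, Klhl28, Afap1 and Siglec1, out of 15051 genes compared over 6 libraries. Their mean absolute difference from that profile, in centred log2 CPM, was 0.053 for Pik3cd, a lipid kinase subunit of leukocytes. It was 0.061 for Uhrf1bp1, 0.066 for Klhl28, 0.07 for Afap1 and 0.071 for Siglec1, a macrophage receptor. Pik3cd had 24.8, 46.9 and 30.6 CPM in TGFalpha lungs and 41.9, 37.8 and 35.3 CPM in control lungs. All 6 libraries and their depth are shared by these profiles.

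Around the 9 genes, 8 lists of B cell-related genes held 90 genes in the table, of which 81 were tested. In edgeR, 3 of the 81 rose and 7 fell, 3.70% and 8.64% beside the 5.03% and 3.29% of all genes. The median log2 fold change of the 81 was -0.29, and 61 of them lay below 0, beside 49.1% of all genes. At an unadjusted p under 0.05 in edgeR 11 of the 81 were higher and 20 lower, beside 27.0% of all genes in either direction. These counts depended on single libraries, as did those over all genes. Without control replicate 2, 0 rose and 0 fell (8 higher and 14 lower at an unadjusted p under 0.05 in edgeR), and without control replicate 3, 1 rose and 0 fell (5 higher and 17 lower at an unadjusted p). Over all genes the shares called were 1.60% higher and 0.261% lower without control replicate 2, and 1.24% higher and 0.206% lower without control replicate 3. The shares of all genes at an unadjusted p under 0.05 in edgeR were 21.2% and 18.6% in these settings. Without TGFalpha replicate 1 the number that fell was 1, beside 0.574% of all genes, and without TGFalpha replicate 3 it was 3, beside 2.92% of all genes. Without both muscle-containing libraries, 3 rose and 1 fell, beside 1.91% and 1.03% of all genes. On all libraries DESeq2 called 5 higher and 13 lower, beside 7.45% and 7.06% of all genes. With limma-voom 4 were called higher and 8 lower, beside 4.98% and 3.72% of all genes. Where a call below is described as lost, the direction was unchanged.

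The survival and homing ligands and receptors held 5 of these 10 calls: of 19 tested genes 1 rose, 4 fell and 14 did not pass, with a median log2 fold change of -0.63. Cxcl13, the ligand of Cxcr5, rose. It had 155.5, 187 and 93.9 CPM in TGFalpha lungs and 39.6, 17.1 and 16.9 CPM in control lungs. Every TGFalpha library was above every control, with a fold of 5.93, a log2 fold change of 2.57 ± 0.40 and an edgeR adjusted p of 0.00994. The call was lost without control replicate 2 (adjusted p = 0.059) or control replicate 3 (adjusted p = 0.0615), at log2 fold changes of 2.37 and 2.35. Its receptor Cxcr5, as given above, did not pass the test. The ratio of Cxcl13 to Cxcr5 in CPM was 102, 37.3 and 20.4 in TGFalpha lungs and 8.97, 3.10 and 3.45 in control lungs. A low value of Cxcr5, the divisor, raises this ratio by itself, and the ratio was not tested.

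Of the 4 that fell, Cxcr4, the receptor for Cxcl12 that holds B cells and plasma cells in marrow niches and is also on many other cells, had 36.7, 51.0 and 32.1 CPM in TGFalpha lungs. Control lungs had 87.4, 104 and 84.0 CPM. The log2 fold change was -1.20 ± 0.20 (edgeR adjusted p = 0.0143). The call was lost without TGFalpha replicate 1, control replicate 2, control replicate 3 or both muscle-containing libraries (adjusted p 0.0549 to 0.0651, log2 fold change -1.27 to -1.10). Its ligand Cxcl12 had a log2 fold change of -0.83 ± 0.23 that missed the threshold (edgeR adjusted p = 0.0611), and it passed with DESeq2, with the replicate block, and without TGFalpha replicate 3 or control replicate 1.

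Tnfsf13b, which encodes BAFF, fell, with 6.04, 7.85 and 8.21 CPM in TGFalpha lungs and 12.7, 15.8 and 22.4 CPM in control lungs. Its log2 fold change was -1.20 ± 0.26 (edgeR adjusted p = 0.0309), and the call was lost without any 1 of the 3 TGFalpha libraries, without control replicate 2 or 3 and without both muscle-containing libraries (adjusted p 0.0528 to 0.131, log2 fold change -1.295 to -0.955). BAFF relative to its receptor overlapped between groups: the ratio of Tnfsf13b to Tnfrsf13c was 2.41, 1.32 and 1.85 in TGFalpha lungs and 2.05, 2.38 and 3.60 in control lungs. The related cytokine gene Tnfsf13 (APRIL) had a log2 fold change of -0.30 ± 0.26 (edgeR adjusted p = 0.483). The further receptors of BAFF and APRIL were scarce. Tnfrsf13b had 0.425, 0.329 and 0.251 CPM in TGFalpha lungs and 0.843, 0.733 and 1.05 CPM in control lungs, without overlap of the groups. Its log2 fold change of -1.37 ± 0.56 did not pass (edgeR unadjusted p = 0.0376, adjusted p = 0.158). Tnfrsf17, on plasma cells, had at most 0.723 CPM in TGFalpha lungs and 1.49 CPM in control lungs (edgeR adjusted p = 0.434).

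The other genes of the list that fell were Ccl21a, a chemokine of lymphatic vessels and T zone stroma, and S1pr1, which guides lymphocytes out of tissue and is abundant in endothelium. Ccl21a had 20.6, 15.8 and 13.0 CPM in TGFalpha lungs and 29.6, 45.4 and 32.6 CPM in control lungs (log2 fold change -1.12 ± 0.23, edgeR adjusted p = 0.0284). That call was lost without TGFalpha replicate 2 or 3 or control replicate 2 or 3 (adjusted p 0.0626 to 0.10, log2 fold change -1.19 to -0.91). S1pr1 had 102, 101 and 149 CPM in TGFalpha lungs and 179, 261 and 278 CPM in control lungs (log2 fold change -1.03 ± 0.23, edgeR adjusted p = 0.0344). It lost its call without TGFalpha replicate 1 or 2, control replicate 2 or 3, or both muscle-containing libraries (adjusted p 0.0562 to 0.147, log2 fold change -1.11 to -0.915). The endothelial marker Pecam1 had 168, 159.8 and 269 CPM in TGFalpha lungs and 328, 513 and 504 CPM in control lungs, and its part in the S1pr1 result was not tested.

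**Figure D4:**
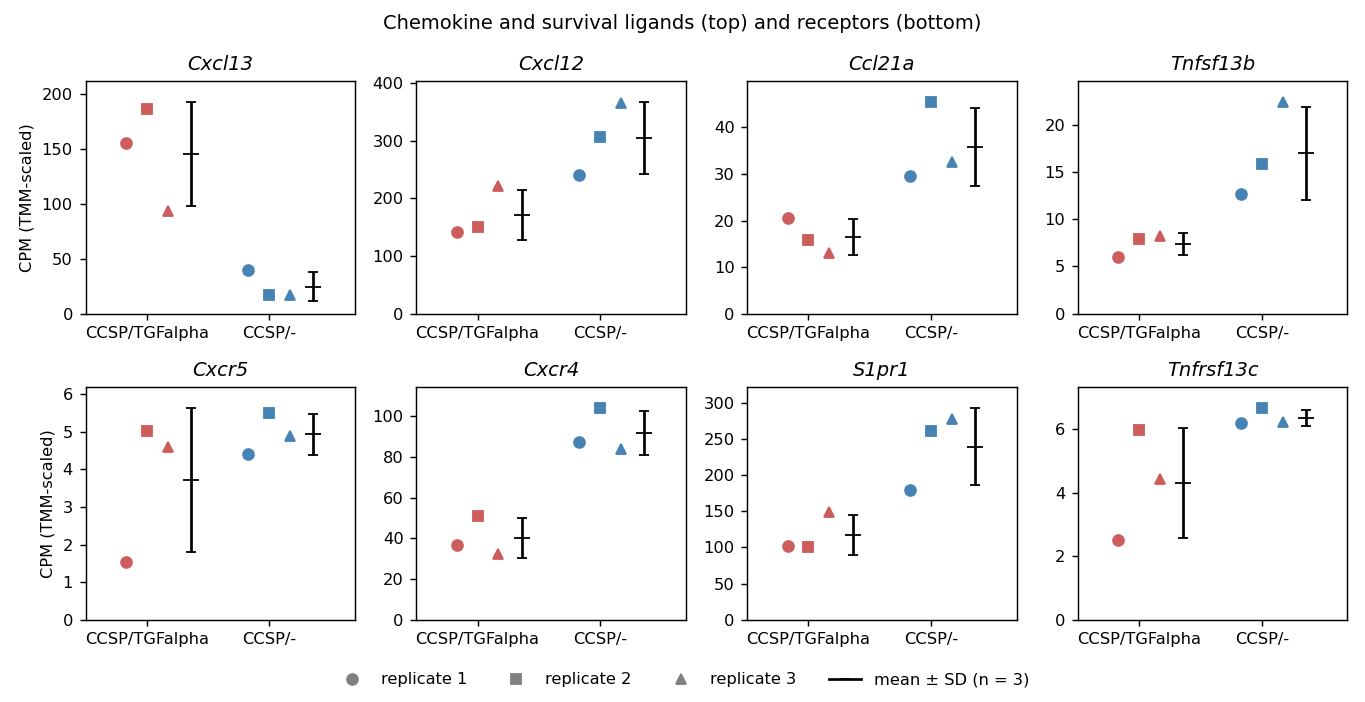
Levels in CPM scaled by TMM (vertical axes, from 0) of 4 ligands (top) and 4 receptors (bottom) of B cell homing and survival, with a symbol per replicate and the mean ± SD of the 3 libraries per group. Cxcl13 is higher in every CCSP/TGFalpha library than in any CCSP/- library while its receptor Cxcr5 overlaps, and Tnfsf13b is lower in every CCSP/TGFalpha library.

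Among the 19 signalling partners of the B cell receptor, 1 fell and 18 did not pass, with a median log2 fold change of -0.17. The 1 that fell was Cd180, a Toll-like receptor homologue of B cells and myeloid cells, with 4.93, 9.42 and 5.45 CPM in TGFalpha lungs and 13.3, 13.2 and 19.6 CPM in control lungs (log2 fold change -1.22 ± 0.30, edgeR adjusted p = 0.0461). The call was lost without TGFalpha replicate 1 or 3, any 1 of the 3 control libraries or both muscle-containing libraries (adjusted p 0.0558 to 0.18, log2 fold change -1.32 to -1.01). Cd72 and Cd81 had log2 fold changes of 0.89 ± 0.34 and 0.53 ± 0.20 (edgeR adjusted p = 0.137 and 0.139).

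Among 12 other B cell surface and marker genes, 1 rose and 11 did not pass, and the median log2 fold change was -0.69. The gene that rose was Ly86 (MD-1), the partner protein of Cd180, with 72.3, 84.5 and 65.9 CPM in TGFalpha lungs and 36.6, 35.5 and 23.9 CPM in control lungs. Its log2 fold change was 1.22 ± 0.20 (edgeR adjusted p = 0.0128), lost without control replicate 2 (adjusted p = 0.052, log2 fold change 1.30). Ly86 is also made by macrophages and dendritic cells. Siglecg and Btla, inhibitory receptors of B cells, had log2 fold changes of -1.30 ± 0.45 and -0.81 ± 0.27 that did not pass (edgeR adjusted p = 0.110 and 0.0972), and both passed with DESeq2.

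Among 10 B lineage transcription factors other than Pax5, 1 fell and 9 did not pass, with a median log2 fold change of -0.38. Ikzf3 (Aiolos), a factor of maturing lymphocytes, fell, with 3.53, 6.33 and 6.16 CPM in TGFalpha lungs and 10.7, 12.4 and 13.2 CPM in control lungs (log2 fold change -1.18 ± 0.27, edgeR adjusted p = 0.0394). That call was lost without any 1 of the 6 libraries and without both muscle-containing libraries (adjusted p 0.0506 to 0.153, log2 fold change -1.32 to -0.95). Ebf1, which acts with Pax5 early in B cell development and is also expressed by stromal cells, had a log2 fold change of -0.99 ± 0.29 (edgeR adjusted p = 0.0769) and passed with DESeq2. Foxo1 had -0.49 ± 0.18 (edgeR adjusted p = 0.127).

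The plasma cell programme had 11 tested genes, of which 1 rose and 10 did not pass, with a median log2 fold change of -0.01. Of the 11, 7 lay below 0, beside 49.1% of all genes. The lowest were Tnfrsf17 at -1.01, Slamf7 at -0.94, Irf4 at -0.665 and Prdm1 at -0.395 (edgeR adjusted p 0.192 to 0.434). Fkbp11, a folding enzyme of the secretory pathway that epithelial cells also express, rose, with 17.9, 12.2 and 11.5 CPM in TGFalpha lungs and 2.09, 4.08 and 4.70 CPM in control lungs. Its log2 fold change was 1.94 ± 0.35 (edgeR adjusted p = 0.0171). The call was lost without TGFalpha replicate 1, control replicate 2 or control replicate 3 (adjusted p 0.055 to 0.069, log2 fold change 1.71 to 2.16). Sdc1 and Xbp1, a surface proteoglycan and a secretory transcription factor that are abundant in epithelium as well, had log2 fold changes of 0.57 ± 0.15 and 0.38 ± 0.15 (edgeR adjusted p = 0.0536 and 0.155), and Sdc1 passed with DESeq2 and limma-voom. The level of Jchain over that of Mzb1, in CPM not divided by length, was 98.7, 82.9 and 86.2 in TGFalpha lungs and 122, 119 and 58.6 in control lungs, overlapping between groups.

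Of 10 germinal centre genes 6 were tested, and 1 fell and 5 did not pass. Icosl, a costimulatory ligand, fell, with a log2 fold change of -0.72 ± 0.17 (edgeR adjusted p = 0.0382) that was lost without any 1 of the 6 libraries and without both muscle-containing libraries (adjusted p 0.0558 to 0.138, log2 fold change -0.82 to -0.62). Il21r and S1pr2 had log2 fold changes of 1.004 ± 0.304 and 0.36 ± 0.14 that did not pass (edgeR adjusted p = 0.0808 and 0.148), and Il21r passed with DESeq2 (adjusted p = 0.0287). The germinal centre marker Rgs13 had 0 counts in all 6 libraries. Of 6 genes of B cell precursors, only Dntt passed the filter, at 0.595 CPM or less in TGFalpha lungs and 0.596 CPM or less in control lungs (edgeR adjusted p = 0.95), and Rag2 and Igll1 had 0 counts in every library.

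The receptor that carries polymeric IgA and IgM across epithelium, Pigr, had 38.3, 237 and 84.9 CPM in TGFalpha lungs and 596, 226 and 229 CPM in control lungs. Its log2 fold change was -1.55 ± 0.64 (edgeR adjusted p = 0.166), with TGFalpha replicate 2 inside the control range. It was -0.51 without both muscle-containing libraries, -0.94 without control replicate 1 and -2.50 without TGFalpha replicate 2, none of them past the threshold (edgeR adjusted p 0.0603 to 0.558). The list of 3 genes for transport of polymeric antibody and plasma cell homing (Pigr, Ccl28 and Ccr10) had 0 calls by edgeR, DESeq2 and limma-voom, with 1 unadjusted p under 0.05 in edgeR, that of Pigr. Of 6 genes of high endothelial venules and follicular stroma, 3 were tested (Glycam1, Tnfsf11 and Fut7). None was called by any of the 3 tools and 0 had an unadjusted p under 0.05 in edgeR. Immunoglobulin constant genes were not analysed here.

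**Figure D5:**
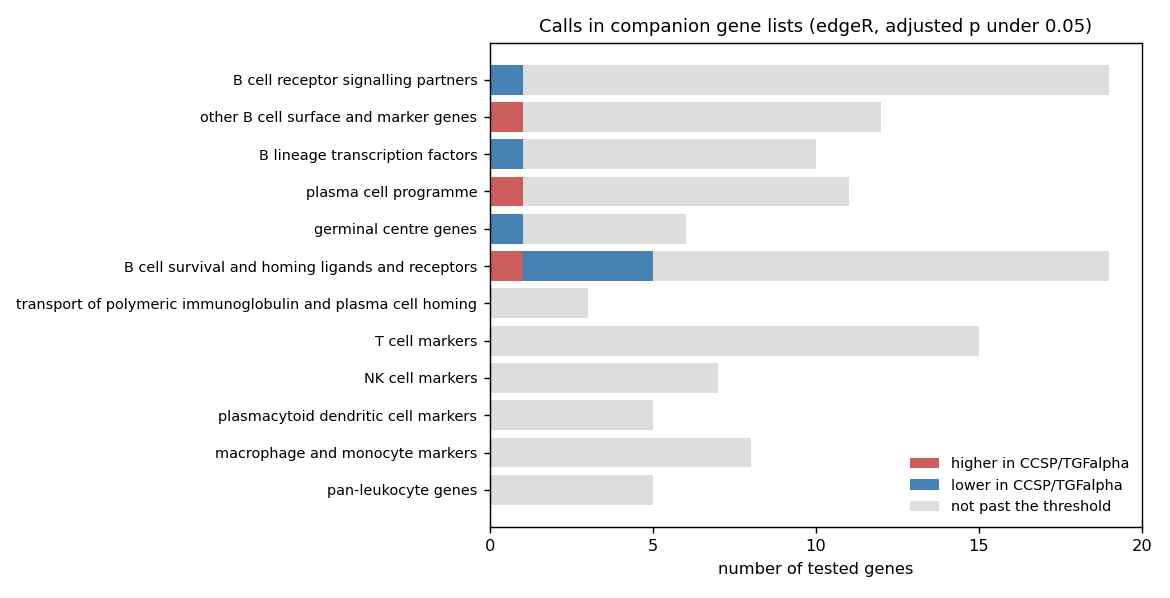
Number of tested genes (horizontal axis) in 12 lists, split into those higher in CCSP/TGFalpha lungs (red), lower (blue) and not past an edgeR adjusted p of 0.05 (grey). Calls are 1 per list in the first 5 lists and 5 of 19 among survival and homing genes, and there are none in the other 6.

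Markers of other leukocytes moved beside the B cell genes as follows, and their part in the results was not tested. The 15 T cell markers summed to 105, 195 and 156 CPM in TGFalpha replicates 1 to 3 and 169, 195 and 207 CPM in control replicates 1 to 3. The 8 B cell genes without Jchain summed to 57.6, 141 and 96.5 CPM in TGFalpha lungs and 124, 118 and 106 CPM in control lungs. Both sums were lowest in TGFalpha replicate 1. The same order over the TGFalpha libraries as in the 8 B cell genes was in 10 of the 15 T cell markers, against 18.0% of all genes. The ratio of the B to the T cell sum was 0.546, 0.722 and 0.619 in TGFalpha lungs and 0.731, 0.607 and 0.511 in control lungs, with full overlap of the groups.

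None of the 15 T cell markers was called by edgeR (2 lower at an unadjusted p under 0.05) or limma-voom, and DESeq2 called 1 lower. Cd28, a costimulatory receptor, was also called lower in edgeR with the replicate block (adjusted p = 0.0386) and without TGFalpha replicate 2 (adjusted p = 0.0367). The median log2 fold change of the 15 was -0.37. The 7 NK cell markers had 0 calls in edgeR, 0 in limma-voom and 3 lower in DESeq2, which called 7.06% of all genes lower. At an unadjusted p under 0.05 in edgeR 4 were lower, beside 27.0% of all genes in either direction. The NK cell markers summed to 42.9 to 70.0 CPM in TGFalpha lungs and 64.2 to 136 CPM in control lungs. Their median log2 fold change was -0.90, and all 7 lay below 0. Of these markers, the granule protease gene Gzma was called lower without both muscle-containing libraries (edgeR adjusted p = 0.0484), and Gzma and the perforin gene Prf1 without control replicate 1 (adjusted p = 0.0294 and 0.0441). The 5 pan-leukocyte genes had 0 calls in edgeR (1 lower at an unadjusted p), 0 in limma-voom and 1 lower in DESeq2, with sums of 419 to 639 CPM in TGFalpha lungs and 602 to 742 CPM in control lungs. The 8 macrophage and monocyte markers and the 5 markers of plasmacytoid dendritic cells had 0 calls by the 3 tools and 0 unadjusted p under 0.05 in edgeR. The macrophage and monocyte markers summed to 6187 to 14090 CPM in TGFalpha lungs and 7484 to 18050 CPM in control lungs, and those of plasmacytoid dendritic cells to 30.5 to 56.1 CPM in TGFalpha lungs and 29.8 to 39.4 CPM in control lungs. The 5 thymocyte genes summed to 0.905 to 2.04 CPM in TGFalpha lungs and 1.05 to 2.05 CPM in control lungs.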

How the data were processed

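Total RNA from mouse lung was extracted with a column kit and sequenced, per the labels' protocols. The authors deposited raw counts for 24061 gene IDs in 6 libraries. The submitters' processing notes name bcl2fastq, CASAVA 1.8, TopHat, DESeq and build mm10. The counting tool, strand setting and annotation are not given in the sources used here, so overlapping genes cannot be separated. RefSeq (GRCm38.p6) named 23976 IDs, and merged exon lengths came from GENCODE.

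Groups followed titles and genotype labels, 3 libraries each. Genes were tested with edgeR 4.0.16 (R 4.3.3): TMM scaling, filterByExpr by group, quasi-likelihood F test, Benjamini-Hochberg adjustment over 16089 genes and a threshold of 0.05. The procedure was tested on simulated data. CPM uses TMM-scaled library sizes, and centred log2 CPM a prior count of 2. Standard errors come from the coefficient and F statistic. Totals of 21479006 to 24914322 counts limit the precision of scarce genes. Libraries within a group differed beyond sampling noise (chi-square per degree of freedom at least 46.6).

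The 9 genes and the lists were chosen with earlier results of these data known. Named were the 9 genes, up to 3 tested genes of smallest adjusted p per list, and the 5 genes most like Cd79a, Cd79b and Ms4a1 with a mean of at least 1 CPM. Tnfsf13b, Tnfsf13, Tnfrsf13b, Tnfrsf17, Slamf7, Irf4, Prdm1, S1pr1, Cxcl12, Fcer2a, Mzb1 and the genes given by counts alone were chosen after their values were seen. So were the library order and the lowest library counted for the B cell genes. Alternatives were other scalings and low-count filters, DESeq2 1.42.0, limma-voom (limma 3.58.1), a robust fit, the 20 most abundant genes left out, the replicate number as a block, each library left out and, added after seeing the data, both muscle-containing libraries left out. Some genes of the lists are not reported here.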

Additional observations from a re-analysis of the deposited data

How the results depend on the processing

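None of the 9 genes was called under any of the 16 alternatives, and their median log2 fold change stayed between -0.70 and -0.13. Of 144 log2 fold changes of the 9 genes under the alternatives, 9 changed sign, all uncalled. Without TGFalpha replicate 2 Cd79b turned to -0.048, and leaving out single libraries gave it -0.048 to 0.21. Ms4a1 turned to -0.087 with limma-voom, -0.077 with the replicate block and ran from -0.30 to 0.35 without single libraries. Jchain turned to 0.003 with limma-voom and 0.46 without both muscle-containing libraries, and ran from -0.65 to 0.69 without single libraries. Mzb1 turned to 0.049 with limma-voom, 0.062 with the replicate block and 0.43 without both muscle-containing libraries, and ran from -0.38 to 0.57 without single libraries. Tnfsf13 turned to 0.034 without both muscle-containing libraries. Over all genes, 810 higher and 530 lower calls became 1279 and 1212 with DESeq2, 307 and 166 without both muscle-containing libraries, and 204 to 606 and 34 to 482 without single libraries. The 3 higher and 7 lower B cell-related calls became 5 and 13 with DESeq2, 3 and 1 without both muscle-containing libraries, and 0 to 3 and 0 to 5 without single libraries. The cause was not tested. The replicate block gave 802 higher and 668 lower calls over all genes. Correlations of same-numbered deviations were 0.42, -0.05 and 0.22, and 3 of 6 libraries correlated best with their own number, so the numbers were not taken to pair the libraries. None of the 12 named genes that were called kept its call in every alternative. Pax5 had 11 to 89 counts per library, the fewest of the 9 genes.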
